A study of Mus musculus with 8 samples.

Results

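A set of 7 genes of the transient receptor potential (TRP) channel family was followed across the arrays: Trpm5, Trpm4, Trpm2, Trpm3, Trpm7, Trpc1 and Trpv2. They are 7 of the 17097 genes tested, and a further 15 TRP channel genes were measured. The set was chosen by the measured level of Trpm5, which stayed low in islets of PBA-treated hIAPP mice. No numeric threshold was used, and the levels of Trpm5 in hIAPP islets are therefore given as a description without a test. The other members were named with it as family members. Each gene was read from every probe set that names its symbol alone, 13 in all, and the brightest set by its mean level is called the main set.

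Total RNA of isolated islets of Langerhans was hybridised to 8 Affymetrix arrays, 2 in each of 4 groups. The hIAPP PBA group came from hIAPP transgenic mice given 4-phenylbutyrate (PBA) at 1 g/kg/day for 12 weeks, and the hIAPP untreated group from hIAPP transgenic mice left untreated. The WT PBA group came from wild-type mice given the same PBA, and the WT untreated group from wild-type mice left untreated. All mice were 8 weeks old at the start and 20 weeks old when islets were isolated, and the labels give all groups 1 strain name, FVB/N-Tg(Ins2-IAPP)RFHSoel/J. As that name gives it, the transgene is driven by an insulin 2 promoter, which acts in beta cells. Its product, human islet amyloid polypeptide (hIAPP), is a peptide co-secreted with insulin that can form amyloid, and PBA is a chemical chaperone and an inhibitor of histone deacetylases. The labels do not say whether an array holds the islets of 1 mouse or of several.

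TRP channels are cation channels of the plasma membrane or of organelles. TRPM5 and its closest relative TRPM4 open when calcium rises inside the cell, let monovalent cations in and so depolarise the membrane. TRPM5 is best known from taste and tuft cells, where it acts downstream of receptors and phospholipase C, and from beta cells, where it adds to the depolarisation that drives glucose-stimulated insulin secretion.

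Values are log2 expression, on which a difference of 1 is a 2-fold change. The background level was taken as 4.68, the 95th percentile of the 23 control sets for non-specific signal, whose median was 3.10. The tissue label was checked against markers: 15 of 19 listed beta-cell markers were measured, and all 15 were above the background level on all 8 arrays. The median over all genes was 5.9 on both hIAPP untreated arrays and 5.7 on the other 6, a shift of 0.2. The spiked-in controls, RNA added before hybridisation, stood at 6.95 (median) on WT PBA replicate 1, against 9.8 to 10.2 on the other 7 arrays. The median of 10 acinar genes, which mark exocrine tissue carried along with islets, was 9.25 and 10.6 on the hIAPP PBA arrays, the lowest of all, and 11.0 to 12.6 on the other 6. In bulk RNA, fewer cells of a type and less RNA per cell cannot be told apart.

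Trpm5 lies on chromosome 7 at chr7:143071529-143094642 of the RefSeq assembly GRCm38.p6, on the minus strand. The 250 bases before its annotated start, chr7:143094643-143094892, and the 250 bases before the first annotated start of Trpv2, chr11:62574236-62574485 on the plus strand, are given because these members had the widest ranges over the arrays. Both are RefSeq sequence of GRCm38.p6, read 5′ to 3′ on the gene's strand, with each CpG dinucleotide in capitals.
Trpm5: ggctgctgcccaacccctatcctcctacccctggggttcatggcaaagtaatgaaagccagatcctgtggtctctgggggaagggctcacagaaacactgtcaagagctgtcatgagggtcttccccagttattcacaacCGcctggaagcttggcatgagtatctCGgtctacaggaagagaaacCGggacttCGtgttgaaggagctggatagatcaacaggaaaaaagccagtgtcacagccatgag
Trpv2: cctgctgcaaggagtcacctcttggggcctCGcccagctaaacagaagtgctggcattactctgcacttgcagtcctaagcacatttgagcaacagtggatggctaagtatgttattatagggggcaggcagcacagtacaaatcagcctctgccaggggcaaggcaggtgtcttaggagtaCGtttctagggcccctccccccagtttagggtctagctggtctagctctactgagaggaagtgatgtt
The Trpm5 window held 4 CpG and 52.8% G or C, and the Trpv2 window 2 CpG and 53.2%. Over all 32851 windows of this length the medians were 6 CpG and 52.4%. The E-box core CANNTG, which reads the same on both strands, was found 0 times before Trpm5 and 3 times before Trpv2, and 66.2% of all windows hold it. The homeodomain core TAAT, searched on both strands and counted without regard to other motifs, was found 1 time before Trpm5 and 2 times before Trpv2, against 54.9% of all windows with at least 1. These are matches of letters, not binding sites, and 6 of the 7 members had an entry in the promoter table.

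Trpm5 was lowest in hIAPP untreated islets, higher in hIAPP PBA islets, higher again in WT untreated islets and highest in WT PBA islets. Its main probe set read 9.5 and 9.5 in hIAPP PBA islets and 8.6 and 8.9 in hIAPP untreated islets. It read 10.9 and 10.6 in WT PBA islets and 10.1 and 10.0 in WT untreated islets. The 4 groups did not overlap, and within a group the arrays were at most 0.3 apart. The means were 9.5 ± 0.0, 8.75 ± 0.21, 10.75 ± 0.21 and 10.05 ± 0.07 in hIAPP PBA, hIAPP untreated, WT PBA and WT untreated islets (SD, n = 2 each).

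Both other Trpm5 probe sets put the groups in the same order, again without overlap. The second set read 8.9 and 8.7 in hIAPP PBA, 8.0 and 8.4 in hIAPP untreated, 10.2 and 10.4 in WT PBA and 9.8 and 9.7 in WT untreated islets. The third read 6.6 and 6.7 in hIAPP PBA, 5.8 and 6.1 in hIAPP untreated, 7.9 and 8.1 in WT PBA and 7.3 and 7.2 in WT untreated islets. All 3 sets were above the background level on all 8 arrays.

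**Figure D1:**
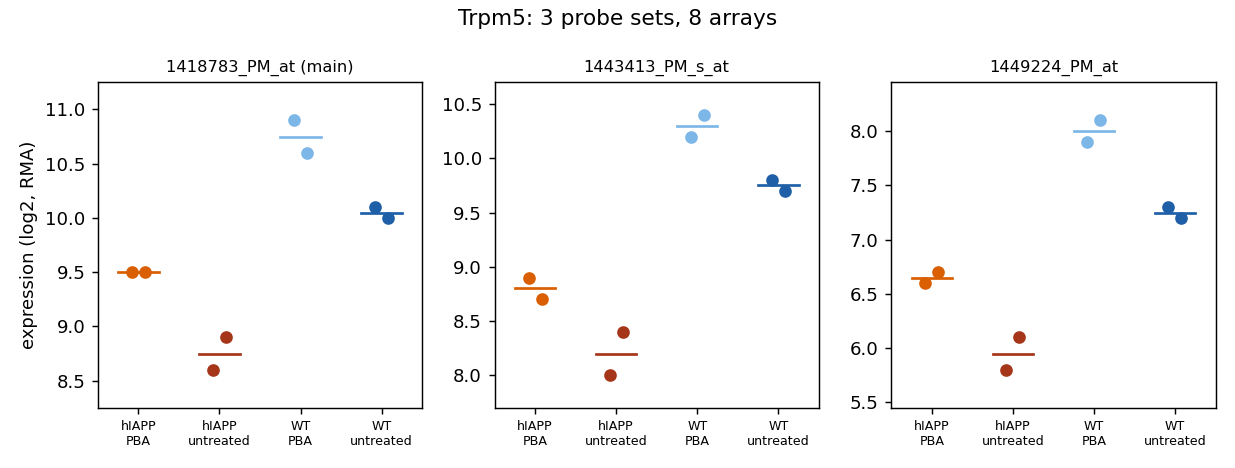
Log2 expression (y axis, each panel spanning 3 log2 units) of the 3 Trpm5 probe sets by group (x axis), with points for single arrays and bars for group means (n = 2). In each panel the order from low to high is hIAPP untreated, hIAPP PBA, WT untreated and WT PBA, with no overlap between groups.

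The transgene difference in Trpm5 was of similar size with and without PBA. In untreated islets hIAPP minus WT was -1.30, -1.55 and -1.30 in the 3 probe sets. Under PBA, hIAPP minus WT was -1.25, -1.50 and -1.35. Islets of PBA-treated hIAPP mice also stayed below untreated wild-type islets, with differences of -0.55, -0.95 and -0.60. With acinar level as a covariate the main-set difference of -0.55 became -0.32. The 10 acinar markers had a median difference of -1.80 between the same groups, with 0 passing where 0.368% of all genes passed. For hIAPP PBA minus WT PBA their median was -1.68, with 0 passing where 0.421% of all genes passed. An unadjusted p under 0.05 was found for 8 of the 10 in each comparison, against 11.0% and 12.1% of all genes. The part of acinar tissue in the Trpm5 levels was not tested.

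PBA arrays were above untreated arrays of the same genotype. In hIAPP islets PBA minus untreated was 0.75, 0.60 and 0.70 in the 3 Trpm5 probe sets, and in WT islets 0.70, 0.55 and 0.75. The difference between both PBA differences was 0.05 in the main set, 0.25 with centred arrays and 0.33 with acinar level as a covariate. These comparisons share arrays, so their values are not independent. The PBA difference in WT islets was tested, but it uses the WT arrays against which Trpm5 stayed low in hIAPP islets. Its p-values are therefore not independent of how the set was chosen. The difference was 0.70 (SE 0.14, 95% interval 0.36 to 1.04), with both PBA arrays above both untreated arrays. It did not pass over all genes (adjusted p = 0.1499). Under a variance prior that follows the mean level it passed (adjusted p = 0.0383), and over 17 alternatives the adjusted p ranged from 0.0383 to 0.5205. WT PBA replicate 1, the array with low spiked-in controls, held the higher of the pair of WT PBA values in the main set but the lower in both other sets.

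Trpm4, the closest relative of Trpm5, did not share its order. It read 7.1 and 7.0 in hIAPP PBA islets and 7.5 and 7.2 in hIAPP untreated islets. It read 7.2 and 7.4 in WT PBA islets and 7.3 and 7.5 in WT untreated islets. The groups overlapped, except that hIAPP PBA arrays were the lowest of all 8. The transgene difference without PBA was -0.05 (95% interval -0.38 to 0.28, adjusted p = 0.8583). PBA-treated hIAPP islets minus untreated wild-type islets was -0.35 (SE 0.14), which did not pass (adjusted p = 0.4263).

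Trpm2, a calcium-permeable channel opened by ADP-ribose in oxidative stress, was close to level. Its main set read 6.1 and 5.9 in hIAPP PBA, 5.8 and 5.8 in hIAPP untreated, 5.8 and 6.2 in WT PBA and 5.7 and 6.0 in WT untreated islets. The groups overlapped, except that both hIAPP PBA arrays were above both hIAPP untreated arrays. The transgene difference was -0.05 without PBA and 0.00 under PBA, with 95% intervals of -0.44 to 0.34 and -0.39 to 0.39. A second set read between 4.5 and 4.9, near the background level. Of 9 genes of ADP-ribose metabolism, which make or clear the ligand of TRPM2, 6 were measured and 0 passed in any comparison. Their unadjusted p was under 0.05 for 2 in hIAPP untreated against WT untreated and for 1 in hIAPP PBA against hIAPP untreated. It was under 0.05 for 1 in the test of the difference between genotypes, and for 0 in the others. Such a p was found for 25.1%, 23.0% and 16.3% of all genes in the comparisons named, in the order given. In the others the share of all genes was 10.5% to 12.1%. Parp1, a poly(ADP-ribose) polymerase gene, was the named gene of this list with the largest PBA difference in hIAPP islets, 0.45 (SE 0.17, adjusted p = 0.1654).

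Trpm3, a channel opened by the steroid pregnenolone sulfate, was not above background. Its single set read 2.9 and 3.1 in hIAPP PBA, 3.3 and 2.9 in hIAPP untreated, 3.1 and 3.2 in WT PBA and 3.0 and 2.9 in WT untreated islets, below 4.68 on all 8 arrays. A further 3 sets that name Trpm3 together with another gene read 2.9 to 3.7, so no Trpm3 difference could be read at this signal.

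Trpm7, a channel fused to a kinase and tied to magnesium uptake, had probe sets that disagreed. The main set read 8.4 and 8.4 in hIAPP PBA, 8.4 and 8.4 in hIAPP untreated, 8.9 and 8.5 in WT PBA and 8.3 and 8.6 in WT untreated islets, with a transgene difference of -0.05 without PBA (adjusted p = 0.8715). The second set read 7.4 and 7.5 in hIAPP PBA, 7.9 and 8.0 in hIAPP untreated, 7.8 and 7.7 in WT PBA and 7.5 and 7.6 in WT untreated islets. In that set the hIAPP untreated arrays were the highest of all, PBA minus untreated in hIAPP islets was -0.50 (adjusted p = 0.0516 over all probe sets) and the transgene difference without PBA was 0.40 (adjusted p = 0.0886). The third set read 7.0 to 7.3 on all 8 arrays. None of the 3 passed in any comparison.

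Trpc1, a subunit of receptor- and store-operated cation channels, was lowest in hIAPP untreated islets. Its main set read 8.3 and 8.4 in hIAPP PBA islets and 7.7 and 8.0 in hIAPP untreated islets. It read 8.4 and 8.4 in WT PBA islets and 8.4 and 8.2 in WT untreated islets. Both hIAPP untreated arrays were below the other 6, which overlapped among groups. The transgene difference without PBA was -0.45 (SE 0.13, adjusted p = 0.0776) and the PBA difference in hIAPP islets was 0.50 (SE 0.13, adjusted p = 0.0660), and neither passed.

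The second Trpc1 set read 5.1 and 5.5 in hIAPP PBA, 4.8 and 4.7 in hIAPP untreated, 5.7 and 5.8 in WT PBA and 5.5 and 5.3 in WT untreated islets. The hIAPP untreated arrays were again the lowest, with a difference of -0.65 from WT untreated islets (adjusted p = 0.0516 over all probe sets). With the mean of both sets in place of the brighter one, Trpc1 passed in both comparisons, at -0.55 (adjusted p = 0.0249) and 0.53 (adjusted p = 0.0370). With arrays centred on their medians, it passed at -0.65 (adjusted p = 0.0165) and 0.70 (adjusted p = 0.0177). Between PBA-treated hIAPP and PBA-treated wild-type islets the sets differed. The main set overlapped, at -0.05 (95% interval -0.36 to 0.26, adjusted p = 0.8871), while in the second set both hIAPP arrays were below both WT arrays, at -0.45, which did not pass (adjusted p = 0.3724 over all probe sets).

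Trpv2, a calcium-permeable channel found in macrophages among other cells, was highest where Trpm5 was lowest. It read 4.3 and 4.0 in hIAPP PBA islets and 5.0 and 4.7 in hIAPP untreated islets. It read 3.6 and 3.5 in WT PBA islets and 4.0 and 4.1 in WT untreated islets. The hIAPP untreated arrays were the highest and the WT PBA arrays the lowest, while hIAPP PBA and WT untreated arrays overlapped. Only the hIAPP untreated arrays were above the background level of 4.68, and replicate 2 only just. Differences between the other groups lie within the range of non-specific signal, and differences of hIAPP untreated islets from them have no measured level on the lower side, so their sizes are bounds.

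Trpv2 rose in hIAPP untreated islets relative to WT untreated islets, by 0.80 (SE 0.15, adjusted p = 0.0144), and fell in hIAPP PBA islets relative to hIAPP untreated islets, with a difference of -0.70 (SE 0.15, adjusted p = 0.0314). It was the single member of 6 tested that passed in either comparison, where 11.0% and 8.09% of all genes passed. The first call was lost without hIAPP untreated replicate 1, either WT PBA array or either WT untreated array (adjusted p = 0.0515 to 0.1115). The second was lost without any one of the 8 arrays (adjusted p = 0.0735 to 0.1794), with centred arrays (adjusted p = 0.0512) and with acinar level as a covariate (adjusted p = 0.1425). In that comparison 2 of the 10 acinar markers, Cela3b and Sycn, fell, with a list median of -2.15, and their part in the Trpv2 result was not tested.

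**Figure D2:**
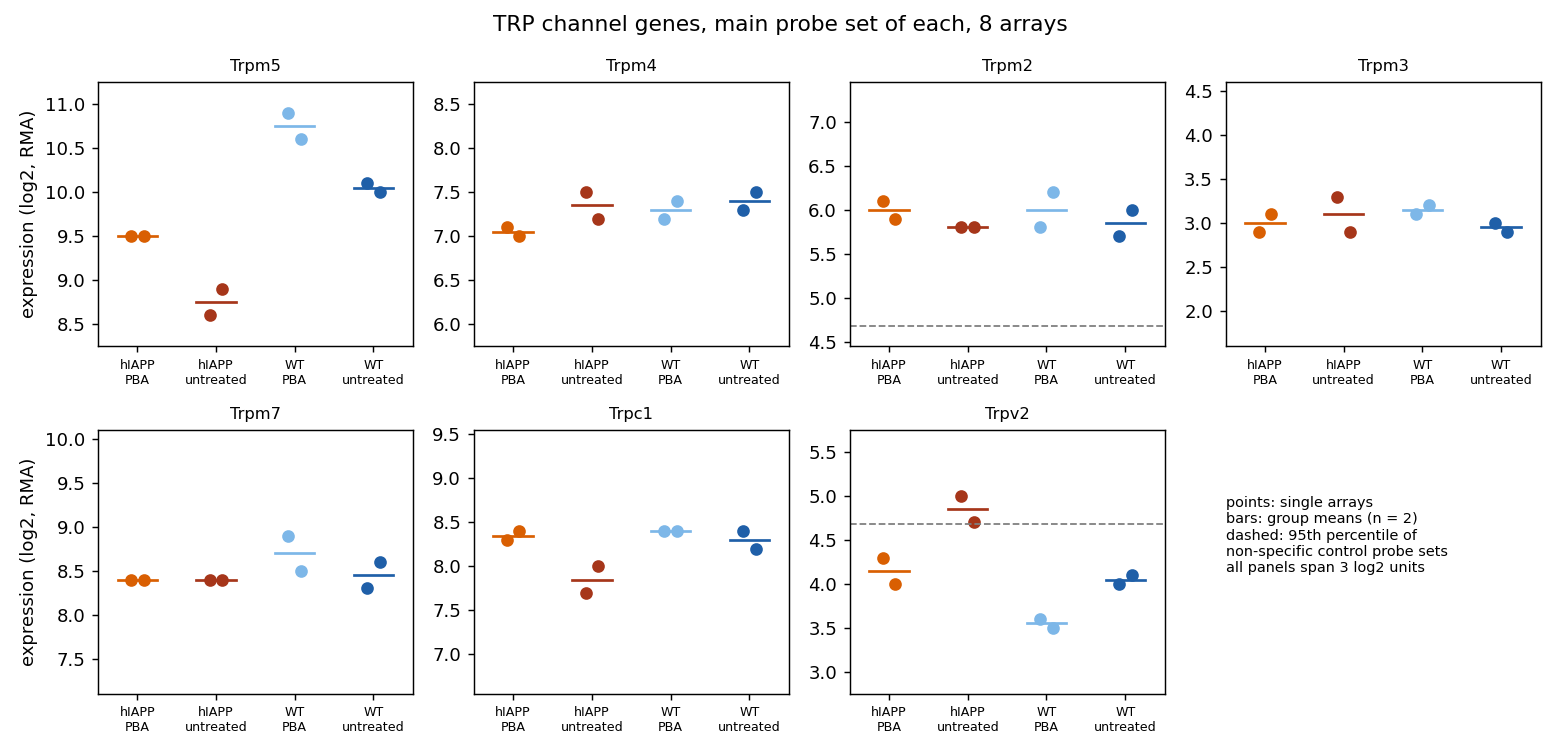
Log2 expression (y axis, each panel spanning 3 log2 units) of the main probe set of the 7 genes by group (x axis), with points for single arrays, bars for group means (n = 2) and a dashed line at the background level of 4.68 where it falls inside the panel. Trpm5 spans 2.3 log2 units over the 8 arrays, Trpv2 1.5 and the other 5 genes 0.4 to 0.7; all Trpm3 points lie below the background level.

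In the other comparisons 0 members passed. For hIAPP PBA minus WT PBA, 0 of 6 tested members passed, against 0.421% of all genes, and 1, Trpv2, had an unadjusted p under 0.05, at 0.60 (SE 0.15, adjusted p = 0.1871). For hIAPP PBA minus WT untreated, 0 of 6 passed, against 0.368% of all genes, and 1, Trpm4, had an unadjusted p under 0.05. For WT PBA minus WT untreated, 0 of 7 passed, against 0.292%, and 2 had an unadjusted p under 0.05, Trpm5 as above and Trpv2 at -0.50 (SE 0.15, adjusted p = 0.3014). The Trpm5 p-value in this count is not independent of how the set was chosen. For the test of whether PBA acted differently in hIAPP and WT islets, 0 of 6 passed and 0 had an unadjusted p under 0.05, against 1.96% of all genes passing. Over all genes, an unadjusted p under 0.05 was found for 12.1%, 11.0%, 10.5% and 16.3% in these comparisons, in the order given. The median over the tested members was between -0.20 and 0.15 in all 6 comparisons, and over all genes between -0.05 and 0.00.

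**Figure D3:**
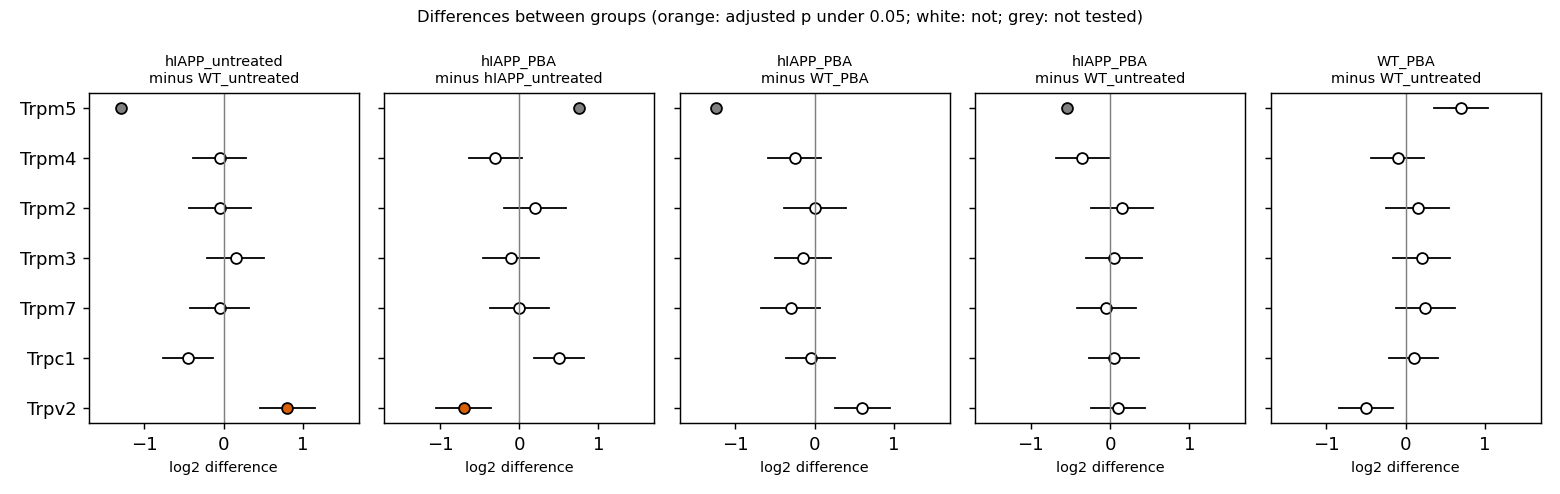
Log2 differences (x axis) of the 7 genes (y axis) in 5 comparisons, one panel each, first group minus second, with 95% intervals for tested values; orange marks an adjusted p under 0.05, white a tested value that did not pass and grey an untested one. Trpv2 is orange at 0.80 and -0.70, and Trpm5 lies at -1.30, 0.75, -1.25 and -0.55 untested and at 0.70 tested.

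The rest of the family was mostly at background. Of 21 further TRP channel genes listed, 15 were measured, 11 were below the background level on all 8 arrays, and 0 passed in any of the 6 comparisons. Unadjusted p was under 0.05 for 3 of them with PBA against untreated in hIAPP islets, for 1 in hIAPP PBA against WT PBA, for 1 in the test of the difference between genotypes, and for 0 in the others. In the 3 comparisons named, 23.0%, 12.1% and 16.3% of all genes had such a p. Depending on the comparison, 0.292% to 11.0% of all genes passed. Trpc4, a channel of the same subfamily as Trpc1, read 5.5 to 5.9, and the lysosomal channel gene Mcoln1 read 6.9 to 7.3, both above background on all arrays. Trpv4, an osmotically sensitive channel, read 3.6 and 3.7 in hIAPP PBA islets and 4.3 and 4.7 in hIAPP untreated islets, a difference of -0.85 that did not pass (SE 0.21, adjusted p = 0.0506) and lay near background.

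The genes that work with TRPM5 in taste cells were mostly at background. Of 10 listed, from the sweet and umami receptors through the taste G protein to the ATP release channel, 7 were measured, 5 of these were below the background level on all arrays, 1 was above it on all arrays, and 0 passed in any comparison, with 0 to 2 at an unadjusted p under 0.05. Depending on the comparison, 0.292% to 11.0% of all genes passed and 10.5% to 25.1% had an unadjusted p under 0.05. The one above background, the IP3 receptor gene Itpr3, read 7.0 to 7.4. Gng13, a G protein gamma subunit, had an unadjusted p under 0.05 without passing, and lay below the background level on all arrays. It read 3.9 and 3.9 in hIAPP PBA islets and 3.5 and 3.5 in WT PBA islets. This difference of 0.40 (SE 0.14, adjusted p = 0.3239) lies within the range of non-specific signal. Tuft cells, another known source of Trpm5, were followed through 10 markers. Of these, 7 were measured, and 4 were below background on all arrays, including the defining transcription factor gene Pou2f3 at 3.5 to 4.3. In each comparison 0 passed and 0 to 2 had an unadjusted p under 0.05, beside the same shares of all genes. The summed level of the 7, as log2 of the sum of linear values, was 8.00 to 8.02 in hIAPP PBA, 8.12 to 8.58 in hIAPP untreated, 7.73 to 7.87 in WT PBA and 8.05 to 8.08 in WT untreated islets. Alox5ap, the 1 marker above background on all arrays, read 6.7 to 8.1, against at most 5.5 for the others. It is the largest term of that sum, which is therefore not a level of tuft cells as such. Dclk1, a tuft and neuronal kinase gene, read 5.5 and 5.2 in hIAPP PBA islets and 4.7 and 4.9 in WT PBA islets, the opposite direction to Trpm5, at 0.55 (adjusted p = 0.1871). In the same comparison Avil was at 0.45, Pou2f3 at 0.40 and Il25, in the direction of Trpm5, at -0.30. Both Pou2f3 and Il25 were below background on all arrays. The part of tuft cells in the Trpm5 levels was not tested.

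Upstream of the channel, 15 of 17 listed genes that run from receptors to the calcium store were measured. Gipr, the receptor gene of the incretin GIP, was the 1 that passed without PBA, where 11.0% of all genes passed, and it fell. It read 6.2 and 6.0 in hIAPP PBA, 5.4 and 5.3 in hIAPP untreated, 6.3 and 6.5 in WT PBA and 6.1 and 6.1 in WT untreated islets, with the hIAPP untreated arrays the lowest of all and the WT PBA arrays the highest. The transgene difference without PBA was -0.75 (SE 0.12, adjusted p = 0.0076) and the PBA difference in hIAPP islets was 0.75 (SE 0.12, adjusted p = 0.0110), where it rose. Under PBA, hIAPP minus WT was -0.30 (SE 0.12, adjusted p = 0.3740).

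Of 15 listed genes of beta-cell excitability, 11 were measured. Without PBA, where 11.0% of all genes passed, 2 rose in hIAPP islets, the sodium channel gene Scn3a (0.80, SE 0.14, adjusted p = 0.0100) and the volume-regulated anion channel gene Lrrc8a (0.45, SE 0.10, adjusted p = 0.0259), and 0 fell. With PBA in hIAPP islets, where 8.09% of all genes passed, the calcium channel gene Cacna1d rose (0.45, SE 0.11, adjusted p = 0.0466) and Lrrc8a fell (-0.50, SE 0.10, adjusted p = 0.0224). Kcnj11 and Abcc8, which encode the ATP-sensitive potassium channel, did not pass, at -0.30 each without PBA (adjusted p = 0.4705 and adjusted p = 0.0902). In hIAPP PBA against WT PBA islets, where Trpm5 was -1.25, 0 genes of either list passed. An unadjusted p under 0.05 was found there for 2 of the 15 and 1 of the 11, against 12.1% of all genes.

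Beta-cell markers were low beside Trpm5 in untreated hIAPP islets but not to the same extent under PBA. Their median was 11.3 and 11.3 in hIAPP PBA, 10.6 and 10.6 in hIAPP untreated, 11.4 and 11.6 in WT PBA and 11.4 and 11.6 in WT untreated islets. Their summed level, as log2 of the sum of linear values, was 15.69 to 15.73, 15.42 to 15.49, 15.71 to 15.83 and 15.67 to 15.77 in the same groups. Of the 15 measured, 4 fell without PBA (Gipr, Neurod1, Sytl4 and Ucn3), with a list median of -0.35, where 3.19% of all genes fell. With PBA in hIAPP islets 5 rose (Gipr, Isl1, Nkx2-2, Pcsk1 and Sytl4), with a median of 0.45, where 1.78% of all genes rose. For hIAPP PBA minus WT PBA the marker median was -0.15, with 0 passing, against 0.421% of all genes. There 3 of the 15 had an unadjusted p under 0.05, against 12.1% of all genes. They were Nkx6-1 (-0.30), Gipr (-0.30) and Sytl4 (-0.25), all lower in hIAPP islets, the direction of Trpm5. For hIAPP PBA minus WT untreated the marker median was 0.00. Trpm5 was at -1.25 and -0.55 in those comparisons. The part of beta-cell content in the Trpm5 levels was not tested.

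Macrophage markers moved in the direction of Trpv2 in both comparisons where Trpv2 passed. Of 12 listed and measured, 9 rose without PBA (median 1.63), where 7.77% of all genes rose. With PBA in hIAPP islets 9 fell (median -1.15), where 6.32% of all genes fell. In hIAPP PBA against WT PBA islets 5 were higher (median 0.90), where 0.322% of all genes were higher. Against WT untreated islets, hIAPP PBA islets had 2 markers higher (median 0.225), where 0.252% of all genes were higher. They were Cd68 (1.35, adjusted p = 0.0201) and Lyz2 (1.80, adjusted p = 0.0046), while Trpv2 was at 0.10 with overlapping arrays. The summed level of the 12 markers was 11.91 to 12.04 in hIAPP PBA, 12.68 to 12.98 in hIAPP untreated, 10.75 to 10.85 in WT PBA and 11.05 to 11.15 in WT untreated islets. Cd68, a lysosomal protein gene of macrophages, read 7.5 and 7.4 in hIAPP PBA, 8.9 and 8.5 in hIAPP untreated, 5.3 and 5.2 in WT PBA and 6.0 and 6.2 in WT untreated islets. As for Trpv2, hIAPP untreated arrays were the highest and WT PBA arrays the lowest. Not every marker had WT PBA arrays lowest. Mrc1 read 3.7 and 4.2 in WT PBA and 3.8 and 4.1 in hIAPP PBA islets. C1qa read 9.8 and 9.8 in WT PBA and 9.6 and 9.5 in WT untreated islets. Connective tissue and endothelial markers moved too, beside the same shares of all genes. Without PBA 8 of 10 and 5 of 8 rose, and with PBA in hIAPP islets 7 and 6 fell. The part of these cells in the Trpv2 result was not tested.

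**Figure D4:**
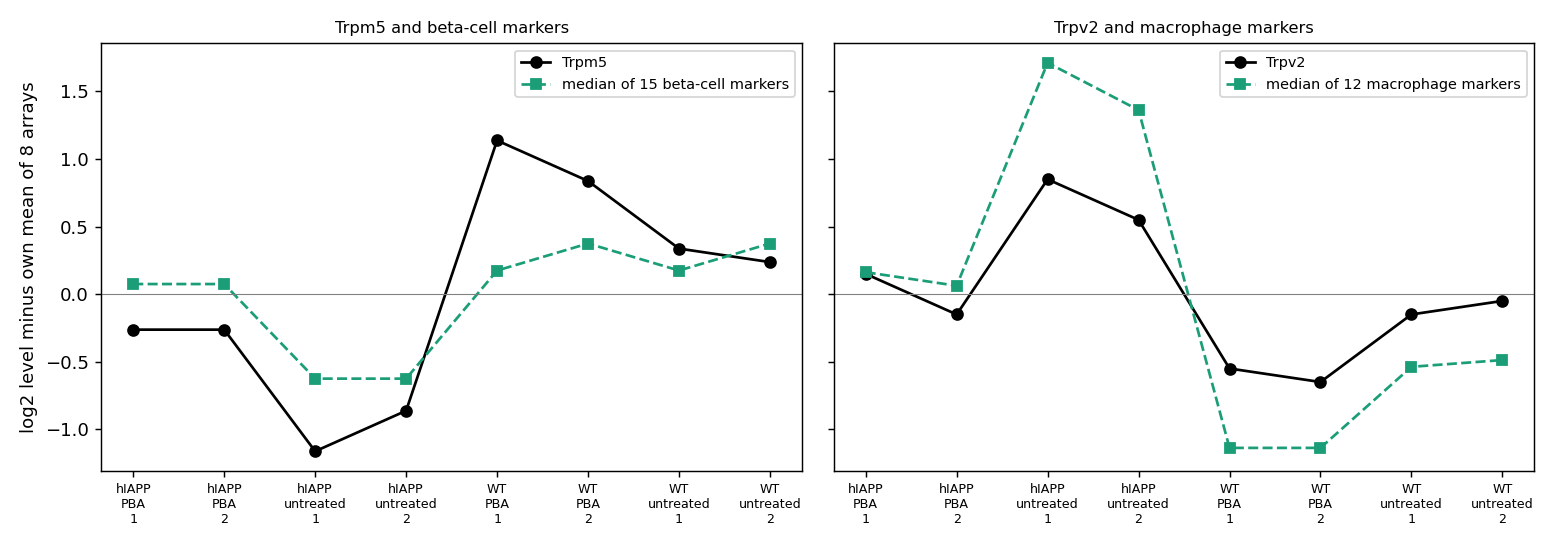
Log2 level minus its own mean over the 8 arrays (y axis) on each array (x axis), for Trpm5 with the median of 15 beta-cell markers (left) and for Trpv2 with the median of 12 macrophage markers (right). On the left both are lowest on the hIAPP untreated arrays, and Trpm5 lies below the markers on both hIAPP PBA arrays; on the right both are highest on the hIAPP untreated arrays.

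The genes whose pattern was most like Trpm5 were found by Pearson's correlation over the 8 arrays among 2147 genes with a range of at least 1 log2 unit. The 6 highest were Plut (0.99), a long non-coding RNA next to Pdx1, Tenm2 (0.985), a teneurin adhesion gene, Tmem215 (0.975), a transmembrane protein gene, Robo1 (0.967), a Slit receptor gene, Abat (0.963), which encodes GABA transaminase, and Ap1s2 (0.962), a clathrin adaptor subunit gene. With 4 groups of 2 similar arrays these values rest mainly on 4 group levels, and they were selected as the highest of many. All 6 were lowest in hIAPP untreated and highest in WT PBA islets by group mean, as Trpm5 was, and hIAPP PBA means lay below WT untreated means in each.

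Plut read 7.8 and 7.8 in hIAPP PBA, 7.5 and 7.6 in hIAPP untreated, 8.5 and 8.3 in WT PBA and 8.2 and 8.1 in WT untreated islets, with no overlap between groups. Tmem215 read 8.0 and 7.9 in hIAPP PBA, 7.2 and 7.4 in hIAPP untreated, 8.7 and 8.5 in WT PBA and 8.4 and 8.4 in WT untreated islets. For hIAPP PBA minus WT PBA the 6 genes lay between -0.65 (Tmem215) and -0.40 (Abat and Ap1s2), against -1.25 for Trpm5. For hIAPP PBA minus WT untreated they lay between -0.45 (Tmem215) and -0.15 (Robo1), against -0.55 for Trpm5.

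**Figure D5:**
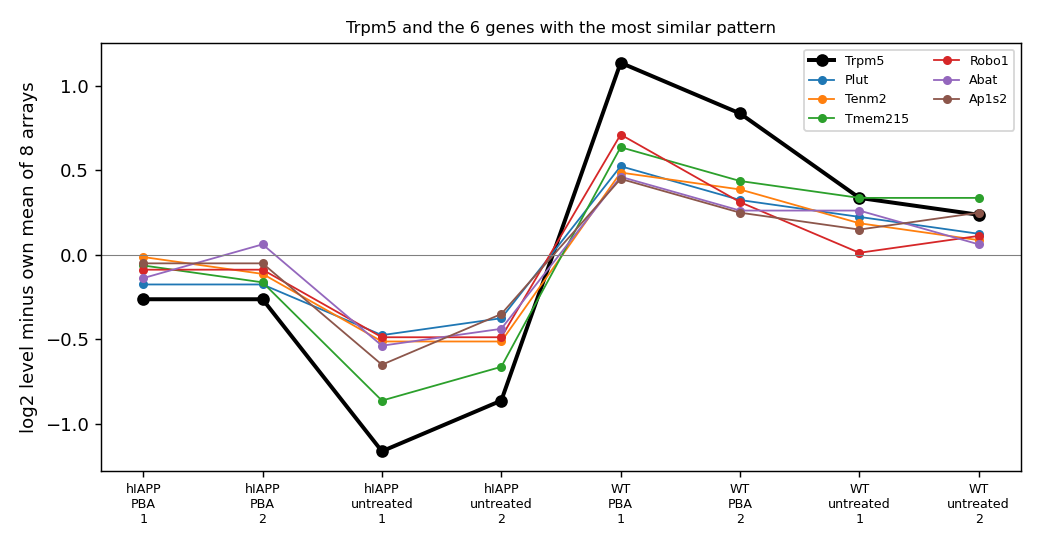
Log2 level minus its own mean over the 8 arrays (y axis) on each array (x axis) for Trpm5 (black) and the 6 genes with the highest correlation to it. All 7 are lowest on the hIAPP untreated arrays and highest on WT PBA replicate 1, and Trpm5 has the widest range.

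None of the measured genes next to Trpm5 on chromosome 7, in a region with imprinted genes, shared its full order of groups. Tssc4 and Kcnq1ot1 were, like Trpm5, lowest in hIAPP untreated islets. Cd81, a tetraspanin gene, rose without PBA, with 10.5 and 10.6 in hIAPP PBA, 11.0 and 10.9 in hIAPP untreated, 9.9 and 10.0 in WT PBA and 10.2 and 10.1 in WT untreated islets (0.80, SE 0.10, adjusted p = 0.0035). Tssc4, the nearest measured gene, read 10.1 and 10.0 in hIAPP PBA, 9.6 and 9.6 in hIAPP untreated, 9.7 and 9.8 in WT PBA and 10.1 and 9.9 in WT untreated islets. It was low in hIAPP untreated islets as Trpm5 was (-0.40, adjusted p = 0.0618), but PBA minus untreated was 0.45 in hIAPP islets (adjusted p = 0.0504) and -0.25 in WT islets (adjusted p = 0.4745).

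Kcnq1ot1, a long non-coding RNA that runs antisense within Kcnq1, rose with PBA in hIAPP islets (0.75, SE 0.17, adjusted p = 0.0385), with 7.5 and 7.6 in hIAPP PBA and 6.7 and 6.9 in hIAPP untreated islets. Without PBA its transgene difference was -0.55 (SE 0.17), in the direction of Trpm5, and did not pass (adjusted p = 0.0889). Its WT PBA arrays, at 7.1 and 7.5, and WT untreated arrays, at 7.5 and 7.2, overlapped. Kcnq1, a potassium channel gene, and Tspan32, a tetraspanin gene, lay near the background level on most arrays, and 4933417O13Rik was below it on all 8. None of these 3 passed in any comparison.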

How the data were processed

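The authors deposited 1 log2 expression value per probe set and array for 45141 probe sets, made with RMA and the affy package per the submitters' processing notes, without versions; values are rounded to 1 decimal, which with 2 arrays per group limits precision. RMA includes quantile normalisation, which hides a shift common to most genes. The 104 control probe sets were left out; 28898 sets name 1 gene symbol, 551 several and 15588 none, by GEO's platform annotation. The set with the highest mean stood for each of 17097 genes. All 8 arrays were fitted with 4 group means in limma 3.58.1 (R 4.3.3; lmFit, contrasts.fit, eBayes, two-sided) and p-values were adjusted within each comparison over all 17097 genes by Benjamini-Hochberg, and an adjusted p under 0.05 is called passing. The fit had 4 residual and 3.27 prior degrees of freedom. It was tested on simulated data first.

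The members and gene lists were chosen with earlier results of these data known. The named genes were the members, up to 4 genes per list with the smallest p in hIAPP PBA minus WT PBA, the 6 genes most like Trpm5 and the 3 nearest measured genes on each side. List genes that passed in another comparison, and Cd68, Gng13, Itpr3, Alox5ap, Cela3b and Sycn, were named after their values were seen. As the labels do not say that arrays come from separate mice, p-values measure only the spread between these arrays, which may be technical. Same-numbered arrays of different groups did not deviate together (correlations -0.14 to 0.098), so numbers were not treated as pairs. Alternatives changed the arrays fitted, the filter, the probe set rule, the unit tested, the variance prior, the centring and an acinar covariate. Sequences and positions are from RefSeq (GRCm38.p6).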

Additional observations from a re-analysis of the deposited data

How the results depend on the processing

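With 2 arrays per group and values rounded to 1 decimal, calls near the threshold are fragile; no value that passed changed sign under any of 17 alternatives (16 for the difference of PBA differences), and Trpm3 had no value under the filter on low values. Of the main values recomputed under the alternatives, 169 stayed within their spread or call, 32 moved and 1 newly passed; of single members' other values, 546 kept their sign and call, 19 lost the call, 7 gained it and 28 changed sign, all 28 without passing. The acinar covariate turned Trpm2 to 0.026 and Trpm4 to 0.012 in hIAPP untreated minus WT untreated, Trpm2 to -0.217 in hIAPP PBA minus hIAPP untreated, Trpc1 to 0.172 in hIAPP PBA minus WT PBA, Trpm2 to -0.191 and Trpv2 to -0.122 in hIAPP PBA minus WT untreated, and the Trpm2 difference of PBA differences to -0.377. Without both arrays that stand apart the last was -0.25, and Trpv2 in hIAPP PBA minus WT untreated -0.05. Those arrays are WT PBA replicate 1, with low spiked-in controls, and hIAPP PBA replicate 1, with the lowest acinar level. Leaving them out keeps 1 array in each PBA group. For hIAPP untreated minus WT untreated that fit is the same as the fit with only the 4 arrays, not a separate check. Centring turned Trpm3 to -0.05 in hIAPP untreated minus WT untreated and to 0.10 in hIAPP PBA minus hIAPP untreated. The mean of probe sets turned Trpm7 to 0.083 in hIAPP untreated minus WT untreated, Trpc1 to -0.025 in hIAPP PBA minus WT untreated and Trpm2 to -0.05 in WT PBA minus WT untreated. Without 1 array, hIAPP untreated minus WT untreated ranged from -0.20 to 0.10 for Trpm2, Trpm4 and Trpm7 and from -0.05 to 0.35 for Trpm3. In the same way Trpm3 ranged from -0.30 to 0.10 in hIAPP PBA minus hIAPP untreated and Trpm2 from -0.05 to 0.35 in WT PBA minus WT untreated. In hIAPP PBA minus WT untreated Trpm3 and Trpc1 ranged from -0.05 to 0.15, Trpm7 from -0.20 to 0.10 and Trpv2 from -0.05 to 0.25. The Trpm2 difference of PBA differences ranged from -0.15 to 0.25, and the untested one of Trpm5, 0.05, from -0.10 to 0.20. The Trpm5 difference of hIAPP untreated minus WT untreated was -1.50 with centred arrays, and that of hIAPP PBA minus hIAPP untreated was 0.95 with centred arrays and 1.03 with the acinar covariate. With that covariate hIAPP PBA minus WT PBA was -1.02, hIAPP PBA minus WT untreated -0.32 and the difference of PBA differences 0.33, which was 0.25 with centred arrays. WT PBA minus WT untreated for Trpm5 was 0.70 and passed with the trended prior (adjusted p = 0.0383), which made 1 member called there in place of 0. That p-value is not independent of how the set was chosen. Members called in hIAPP untreated minus WT untreated were 0 with only the 4 arrays of both groups and without both arrays that stand apart, 2 (Trpc1 and Trpv2) with the mean of probe sets, the trended prior and centred arrays, and 0 to 1 when 1 array was left out. In hIAPP PBA minus hIAPP untreated they were 0 with only 4 arrays, without both arrays that stand apart and with the acinar covariate, 2 (Trpc1 and Trpv2) with the filter, the mean of probe sets and the trended prior, and 0 whichever array was left out. The replicate block left members called at 1, 1, 0, 0, 0 and 0 in the 6 comparisons and the Trpm5 difference in WT islets at 0.70 (adjusted p = 0.2944); the arrays share only a number. Over all genes, hIAPP untreated minus WT untreated gave 1874 calls, against 4346 with centred arrays, 2820 of 45037 probe sets, 483 with only 4 arrays or without both arrays that stand apart, and 572 to 1578 without 1 array. In hIAPP PBA minus hIAPP untreated 1384 became 3503 with centred arrays, 71 with the acinar covariate, 14 with only 4 arrays, 0 without both and 166 to 968 without 1 array. In hIAPP PBA minus WT PBA 72 became 129 with the trended prior, 15 with the replicate block, 4 with the acinar covariate, 0 with only 4 arrays, 1 without both and 5 to 13 without 1 array. In hIAPP PBA minus WT untreated 63 became 173, 30, 2, 0, 1 and 2 to 16 under the same settings. In WT PBA minus WT untreated 50 became 118 with the trended prior, 80 with the filter, 5 with the replicate block, 0 with only 4 arrays or without both and 0 to 2 without 1 array. For the difference of PBA differences 335 became 576 with the trended prior, 118 with the replicate block, 0 with the acinar covariate or without both and 0 to 3 without 1 array. The cause of these changes was not tested.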
